A study of Mus musculus with 72 samples.

Results

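The 12 RNA-seq libraries of cerebellum and hippocampus from wild-type mice were compared region by region. They were taken by their titles, 6 of Gnb5+/+ cerebellum and 6 of Gnb5+/+ hippocampus, out of 72 libraries in the series. Both regions came from the same 6 mice, so that each mouse gave a cerebellum and a hippocampus library. The series was made to study mice that lack Gnb5, the G protein subunit beta 5 that binds and stabilises the R7 regulators of G protein signalling, in brain and heart. All animals were males of 18 weeks on a C57BL/6J background. The Gnb5+/+ mice carried the wild-type gene, and the Gnb5-/- mice used below for the same regional comparison carried a constitutive deletion of exon 3 of Gnb5. The whole cerebellum and the hippocampi of both hemispheres were taken, and libraries were made from total RNA.

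The cerebellum is built from a very large number of small granule cells, which receive mossy fibres and send parallel fibres to the Purkinje cells, the GABAergic output neurons of its cortex. The hippocampus belongs to the forebrain and holds the granule cells of the dentate gyrus and the pyramidal cells of the CA fields, which are glutamatergic and joined in a chain of plastic synapses. The regions descend from different parts of the neural tube, and their neurons keep different transcription factors, receptor subunits and calcium-dependent enzymes into adulthood. In bulk tissue, fewer cells of a type and less RNA per cell cannot be told apart.

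Reads counted on genes were 39375969, 41826034 and 47114533 (lowest, median and highest) in the cerebellum libraries and 35449343, 42158024 and 44444876 in the hippocampus libraries. The share of reads that the counting matched to no gene feature ran from 16.1% to 16.97% in cerebellum. In hippocampus it ran from 11.9% to 13.6%, without overlap. Its part in the differences below was not tested. Levels are given as CPM, reads on a gene scaled to the library total after TMM normalisation, as mean ± SD over 6 mice unless stated, and differences as log2 fold changes of cerebellum minus hippocampus with their standard error (SE). Levels of different genes are compared only as CPM per kb of exon.

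The labels were checked against 4 marker genes. Pcp2, a Purkinje cell protein that acts on G protein signalling, had 141, 147 and 158 CPM in cerebellum (lowest, median and highest mouse) and 0, 0.0581 and 0.187 CPM in hippocampus. Gabra6, the alpha 6 subunit of the GABA-A receptor of cerebellar granule cells, had 809, 844 and 894 CPM in cerebellum and 0, 0.116 and 0.588 CPM in hippocampus. For both genes every cerebellum library lay far above every hippocampus library. Wfs1, an endoplasmic reticulum protein used to mark CA1, had 44.9, 46.5 and 51.7 CPM in cerebellum and 113, 133 and 168 CPM in hippocampus. Prox1, the homeobox factor of dentate granule cells, had 59.5, 69.5 and 99.6 CPM in cerebellum and 119, 132 and 176 CPM in hippocampus. The hippocampus libraries were the higher ones for both, without overlap, but neither gene was near absence in cerebellum, and the difference of Prox1 (−0.89 ± 0.12 SE) was not shown to exceed 2-fold. C1ql2, Dsp and Fibcd1, other genes of dentate and CA neurons, separated the regions far more sharply, at 0.254, 0.958 and 0.272 CPM in cerebellum against 47.2, 63.2 and 183 CPM in hippocampus. Plk5, Maml2 and Cacng5 of the same lists were higher in cerebellum. All 12 libraries matched their labelled region.

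The stretch of 250 bases before the start of transcription is shown for 4 genes that separated the regions sharply, a Purkinje cell gene, a granule cell gene, and a receptor subunit and a CA1 gene of the hippocampus, because each of these genes was close to silent in the other region. They are RefSeq sequences on GRCm38.p6, written 5′ to 3′ on the strand of the gene, with each CG dinucleotide (CpG) in capitals. Pcp2 lies at chr8:3623371-3625545, and its window at chr8:3625548-3625797 on the minus strand held 1 CpG.
Pcp2: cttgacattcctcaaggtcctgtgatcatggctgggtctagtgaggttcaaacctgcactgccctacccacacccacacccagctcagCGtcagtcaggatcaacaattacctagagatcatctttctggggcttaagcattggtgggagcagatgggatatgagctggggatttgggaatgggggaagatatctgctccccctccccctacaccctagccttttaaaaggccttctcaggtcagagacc
The window of Gabra6 (gene at chr11:42306437-42321072) is chr11:42321073-42321322 on the minus strand and held 2 CpGs.
Gabra6: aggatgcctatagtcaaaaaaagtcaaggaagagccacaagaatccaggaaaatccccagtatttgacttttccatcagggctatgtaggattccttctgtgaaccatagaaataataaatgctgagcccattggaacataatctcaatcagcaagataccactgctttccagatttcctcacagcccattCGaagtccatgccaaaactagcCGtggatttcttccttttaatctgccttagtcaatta
The window of Gabra5 (gene at chr7:57407672-57510059), the alpha 5 subunit of extrasynaptic receptors of hippocampal neurons, is chr7:57510060-57510309 on the minus strand and held 9 CpGs.
Gabra5: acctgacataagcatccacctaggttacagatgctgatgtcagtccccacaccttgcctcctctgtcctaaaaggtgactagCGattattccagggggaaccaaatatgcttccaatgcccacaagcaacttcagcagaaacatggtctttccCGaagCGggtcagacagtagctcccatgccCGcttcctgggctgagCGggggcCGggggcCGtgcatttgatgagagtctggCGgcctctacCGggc
The window of Fibcd1 (gene at chr2:31813290-31846005), a membrane receptor that marks CA1, is chr2:31846006-31846255 on the minus strand and held 34 CpGs.
Fibcd1: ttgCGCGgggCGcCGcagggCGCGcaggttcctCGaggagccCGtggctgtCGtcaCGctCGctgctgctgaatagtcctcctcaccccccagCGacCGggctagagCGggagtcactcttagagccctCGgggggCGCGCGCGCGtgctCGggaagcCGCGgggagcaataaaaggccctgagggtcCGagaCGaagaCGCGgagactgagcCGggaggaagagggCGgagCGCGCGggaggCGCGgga
The windows of Pcp2 and Gabra6 thus held few CpGs and that of Fibcd1 many.

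Over the 11585 of 14850 protein-coding genes tested that had such a window, the median window held 15 CpGs. It was 13 for the 946 genes called over 2-fold higher in cerebellum and 11 for the 1623 called over 2-fold higher in hippocampus. The E-box CAGATG, a site of neuronal bHLH factors counted on both strands, was in 10.3% of all windows, in 12.1% of the cerebellum windows and in 12.9% of the hippocampus windows. It was at 100 bases before the start in Pcp2 and at 223 in Gabra5. The TATA box TATAAA, counted on both strands, was in 6.66% of all windows, 7.29% of the cerebellum windows and 9.61% of the hippocampus windows. The homeodomain core TAATTA, which reads the same on both strands, was in 2.56%, 3.70% and 3.14%. Longer sites were rare. TGACGTCA, the cAMP response element, which reads the same on both strands, was in 2.62% of all windows, in 1.90% of the cerebellum windows and in 1.54% of the hippocampus windows. GCGTGGGCG, the site of EGR factors, counted on both strands, was in 1.02%, 0.846% and 0.863%. No motif holds another of them. These shares describe letters in the windows and are no measure of binding.

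Most genes differed between the regions. Of 17752 genes tested, 14259 (80.3%) had an adjusted p below 0.05 in edgeR's quasi-likelihood test with the mouse as a block, and are called DEGs. The split was even, with 7132 DEGs higher in cerebellum (40.2%) and 7127 higher in hippocampus (40.1%). The median log2 fold change of all genes tested was 0.0028, and the median absolute change was 0.53 against a median SE of 0.066. Because so many small differences passed, a second call asked for a difference over 2-fold (edgeR's glmTreat). It was met by 4351 genes (24.5%), of which 1719 (9.68%) were higher in cerebellum and 2632 (14.8%) in hippocampus. Counts of list members below are to be read beside these shares, 80.3% for DEGs and 24.5% for over 2-fold. The excess on the side of the hippocampus grew with the size of the difference. Among the DEGs, 841 were at least 4-fold higher in cerebellum and 1544 at least 4-fold higher in hippocampus, and for 32-fold the counts were 146 and 385. The 6 cerebellum libraries did not overlap with the 6 hippocampus libraries at 10818 genes (60.9%). Protein-coding genes followed this split, with 1268 over 2-fold higher in cerebellum and 2141 in hippocampus of 14850, while the 75 sense intronic genes went the other way with 19 and 4.

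**Figure D1:**
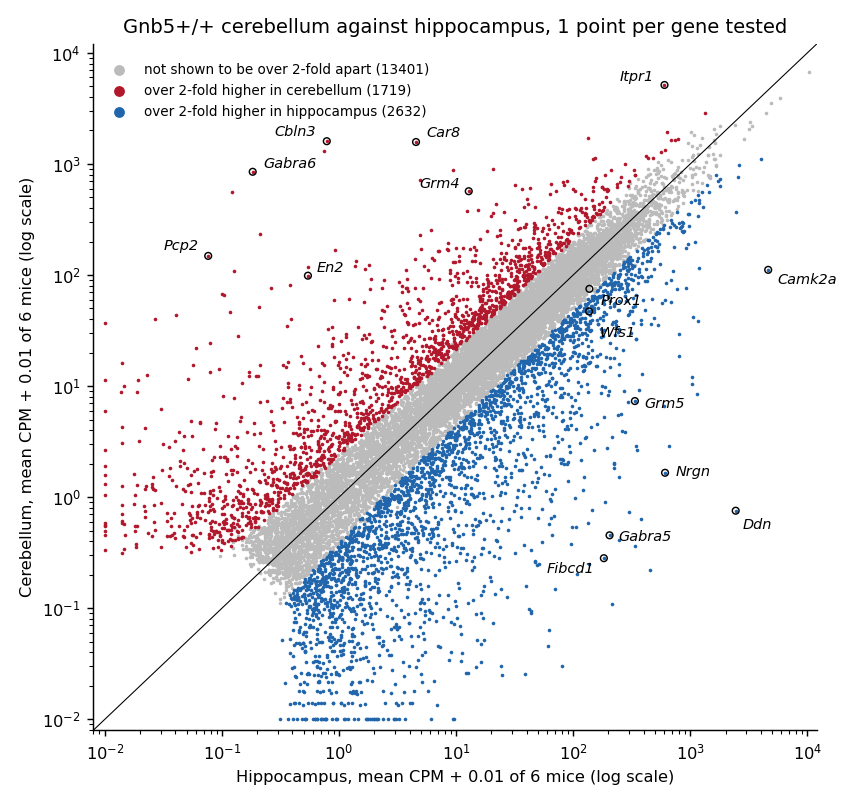
Mean level of each of the 17752 genes tested in Gnb5+/+ hippocampus (horizontal axis) and cerebellum (vertical axis), in CPM plus 0.01 on log scales, each point a gene averaged over 6 mice. Coloured points are genes called over 2-fold apart, 1719 higher in cerebellum (red) and 2632 higher in hippocampus (blue). Grey points are genes not shown to be over 2-fold apart, and the circled genes are named in the text.

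Genes of Purkinje cells, granule cells and the embryonic hindbrain were among those with the largest differences towards the cerebellum. Cnpy1, a gene of FGF signalling at the midbrain-hindbrain boundary, had 561 ± 38.8 CPM in cerebellum and 0.111 ± 0.1197 CPM in hippocampus, a log2 fold change of 12.302 ± 0.15 SE. Gabra6 lay within the error of this at 12.25 ± 0.21, and Pcp2 was at 11.05 ± 0.15. Cbln3, a secreted relative of the synapse organiser cerebellin 1, had 1600.0 ± 145 CPM against 0.777 ± 0.361 CPM, and Fat2, a giant cadherin of granule cell axons, 1296 ± 96.5 CPM against 0.737 ± 0.331 CPM. Aqp6, a water channel, had 39.8 ± 5.35 CPM against 0.0168 ± 0.0214 CPM. Hes3, a repressor of the Notch pathway, had 43.4 ± 2.48 CPM against 0.0305 ± 0.0394 CPM. Ppp1r17, a phosphatase inhibitor of Purkinje cells, had 233 ± 12.7 CPM against 0.2000 ± 0.0769 CPM. In each of these genes the lowest cerebellum library was above the highest hippocampus library, which the rule for naming them required. Skor2, a transcriptional corepressor of Purkinje cells, had 2943 reads in cerebellum and 2 in hippocampus, a ratio of 1353 (374 to 11176, exact 95% interval of counting error alone). Iltifb, an interleukin-22 gene with a near-identical copy on the same chromosome, had 4252 reads against 1, a ratio of 3909 (701 to 1.54e+05). Because reads that align to both copies may not have been counted on either, its level is uncertain.

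The largest differences towards the hippocampus were of the same order. Ddn, the postsynaptic protein dendrin, had 0.745 ± 0.932 CPM in cerebellum and 2440.4 ± 169 CPM in hippocampus, a log2 fold change of −11.74 ± 0.35 SE. Crym, a thyroid hormone binding protein, had 0.0997 ± 0.09899 CPM against 213 ± 15.2 CPM. Cpne7, a calcium-dependent membrane-binding copine, had 0.211 ± 0.0335 CPM against 451 ± 61.00 CPM, and Icam5, the adhesion molecule telencephalin of forebrain dendrites, 0.3500 ± 0.143 CPM against 338 ± 10.1 CPM. The others were the transcription factors Fezf2 (−11.06), Lhx2 (−10.68) and Emx2 (−9.41), the zinc finger gene Zfp831 (−10.09), and Crhbp, the binding protein of corticotropin-releasing hormone (−10.39), all as log2 fold changes. None of these genes overlapped between the regions, which the rule for naming them required.

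Non-coding genes showed differences as large. Gm39465, a lincRNA on chromosome 9, had 9656 reads in the cerebellum libraries and 0 in the hippocampus libraries, so that it was at least 2959-fold higher in cerebellum, taking 3 reads over the 6 libraries as the limit. Gm12116 had 2976 reads and 0, at least 912-fold higher. Gm14033 had 24.4 ± 4.15 CPM against 0.0685 ± 0.0557 CPM. On the side of the hippocampus, an antisense transcript of Dlx6 (Dlx6os1, ENSMUSG00000090063) had 0.01998 ± 0.0286 CPM in cerebellum and 23.9 ± 2.52 CPM in hippocampus, with the limit that whether reads were counted by strand is not given in the sources used here. Gm2824 had 0.0793 ± 0.0444 CPM against 14.7 ± 1.05 CPM and 2900052N01Rik 0.664 ± 0.142 CPM against 68.7 ± 20.7 CPM.

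Genes with very many reads differed as well, ranked here by CPM, which favours long transcripts. Itpr1, the inositol trisphosphate receptor through which Purkinje cells release stored calcium, had 5131 ± 325 CPM in cerebellum and 602 ± 60.5 CPM in hippocampus. It had the highest CPM of the protein-coding genes over 2-fold higher in cerebellum, followed by Adcy1, a calmodulin-stimulated adenylyl cyclase (2869 ± 126 CPM against 1344 ± 178), Syne1, a nuclear envelope protein (1926 ± 139 against 632 ± 57.6), Rgs8, a regulator of G protein signalling of Purkinje cells (1709.8 ± 62.2 against 134 ± 11.99), and Slc1a3, the glial glutamate transporter GLAST (1688 ± 73.3 against 777 ± 22.2). In hippocampus the corresponding gene was Camk2a, the alpha subunit of calcium/calmodulin-dependent kinase II, with 111 ± 3.46 CPM in cerebellum and 4623 ± 232 CPM in hippocampus. It was followed by Slc1a2, the glial glutamate transporter GLT-1 (1102 ± 56.99 CPM against 3993 ± 297), Kif5a, a kinesin of axonal transport (972 ± 73.5 against 2579 ± 247), and Cpe, the carboxypeptidase that trims neuropeptides (763 ± 39.4 against 2563 ± 48.9). Per kb of exon, Cpe at 982 CPM per kb, Ddn at 645 and Camk2a at 619 were higher in hippocampus than each of the 5 cerebellum genes was in cerebellum, where Itpr1 reached 280.1 CPM per kb.

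The Purkinje cell genes were mostly higher in cerebellum. Of 14 listed, 13 were DEGs higher in cerebellum, all 13 over 2-fold, and 1 was higher in hippocampus, by −0.64 on the log2 scale. The list median was 4.33 against 0.0028 for all genes. Their summed level was 12771, 13334 and 14034 CPM in cerebellum and 2284, 2464 and 2586 CPM in hippocampus. Car8, a carbonic anhydrase relative that binds the Itpr1 receptor, had 1573 ± 71.1 CPM against 4.54 ± 0.947 CPM (8.44 ± 0.11 SE). Plcb4, a phospholipase C that acts downstream of Gq, had 432 ± 14.03 against 22.1 ± 0.575 CPM, and Slc1a6, the Purkinje cell glutamate transporter, 171 ± 9.14 against 8.27 ± 0.688 CPM. Calb1 and Aldoc were less far apart than these genes. Calb1, the calcium buffer calbindin, had 1099.8 ± 33.3 CPM in cerebellum and 147 ± 7.62 CPM in hippocampus, and Aldoc, the aldolase of zebrin-positive Purkinje cells and of astrocytes, had 1644 ± 53.6 against 736 ± 75.2 CPM.

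All 14 genes of the cerebellar granule cell list were over 2-fold higher in cerebellum, with a median of 4.32. Their summed level was 7897, 8282 and 8775 CPM in cerebellum and 368, 401 and 428 CPM in hippocampus. The transcription factors Zic1 (877 ± 46.5 against 9.32 ± 2.84 CPM), Neurod1 (342 ± 20.5 against 19.98 ± 0.591 CPM) and Pax6 (131 ± 4.83 against 9.41 ± 0.839 CPM), which act in granule cell precursors, were still present at these levels in the adult. Barhl1, a homeobox factor of the rhombic lip, was low in cerebellum at 11.5 ± 0.882 CPM and nearly absent from hippocampus at 0.0416 ± 0.04504 CPM. Cbln1, the cerebellin that joins parallel fibres to Purkinje cells, had 719 ± 71.5 CPM against 4.87 ± 1.52 CPM. Etv1 had the smallest log2 fold change of the list at 2.19. Reln, the secreted guidance protein reelin, was at 2.46, and Calb2, the calcium buffer calretinin, at 3.45, also below the list median.

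Of 9 genes of other cerebellar cells, 7 were higher in cerebellum, 4 of them over 2-fold, and 2 were not DEGs. Among all genes tested 40.2% were higher in cerebellum, and 9.68% over 2-fold. Slc6a5, the glycine transporter of Golgi cells and of the cerebellar nuclei, had 46.7 ± 1.37 CPM against 0.107 ± 0.0991 CPM. Eomes, the factor of unipolar brush cells, had 34.8 ± 16.2 CPM against 0.352 ± 0.144 CPM, and Gdf10, a growth factor of Bergmann glia, 172 ± 13.4 CPM against 13.2 ± 1.23 CPM. Slc1a3, which Bergmann glia hold in large amounts, was the fourth over 2-fold. Spp1, the secreted phosphoprotein osteopontin, Hopx and Lgi2 were higher but not shown to exceed 2-fold (0.95, 1.12 and 1.01 on the log2 scale).

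**Figure D2:**
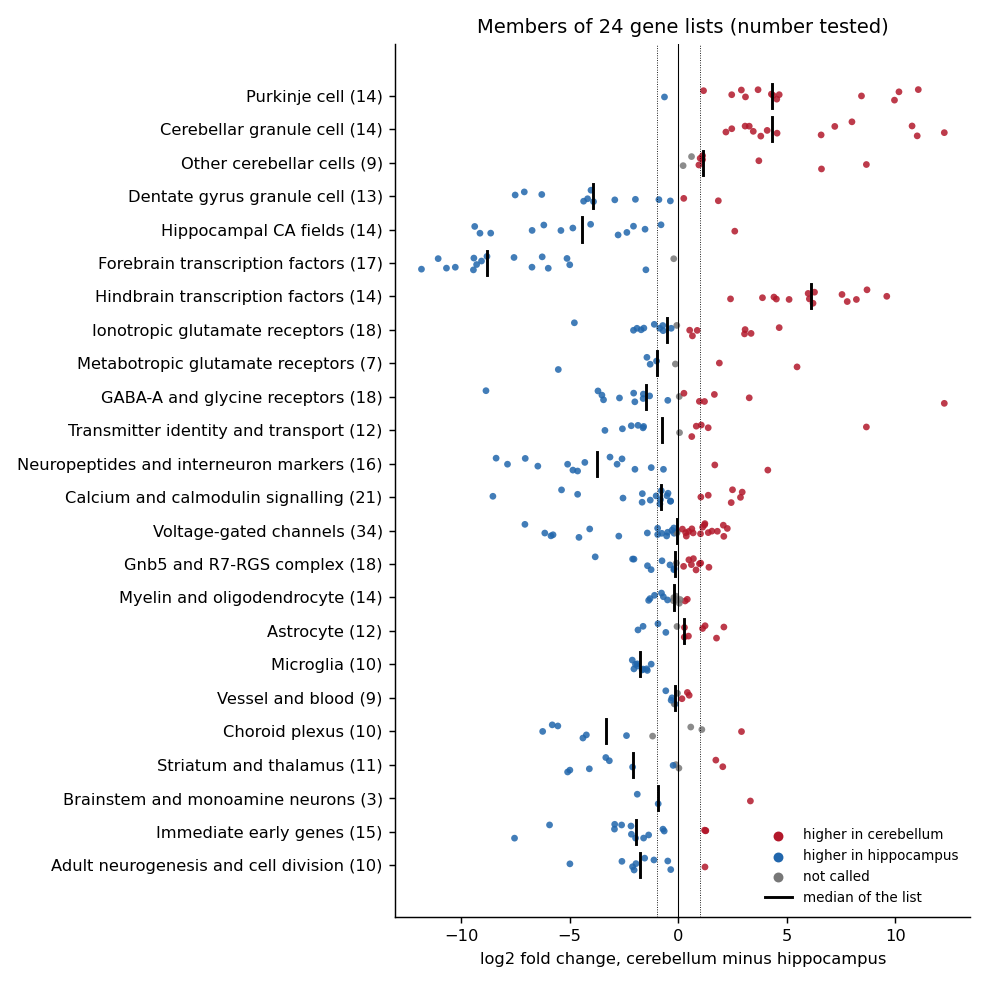
Log2 fold change (horizontal axis, cerebellum minus hippocampus) of every tested member of 24 gene lists, with the number tested in parentheses, colours for the call at an adjusted p of 0.05 and a black bar at the list median. The granule cell, other cerebellar and hindbrain lists lie wholly to the right of 0, the forebrain and microglia lists wholly to the left, and the receptor, channel and astrocyte lists on both sides. Dlx2 and Dlx6, with no read in cerebellum, are drawn at their fitted values, which are no bounds.

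The dentate gyrus list leaned to the hippocampus but was not uniform. Of 13 genes, 11 were higher in hippocampus, 9 of them over 2-fold, and 2 were higher in cerebellum, with a median of −3.905. Summed levels were 225, 248 and 276 CPM in cerebellum and 703, 731 and 894 CPM in hippocampus. Lct, the lactase gene, had 0.387 ± 0.139 CPM in cerebellum and 54.3 ± 16.1 CPM in hippocampus. C1ql2, a secreted organiser of mossy fibre synapses, had a log2 fold change of −7.51 ± 0.087 SE, and C1ql3, its relative, −4.02 ± 0.14. Dsp, the desmosomal protein desmoplakin, had 0.0828, 0.377 and 4.26 CPM in cerebellum and 52.6, 56.7 and 89.3 CPM in hippocampus, which made it the least even of these genes among the mice. Plk5, a polo-like kinase, went the other way with 91.96 ± 6.799 CPM in cerebellum and 25.9 ± 5.17 CPM in hippocampus. Maml2, a coactivator of Notch, was also higher in cerebellum, by 0.25 on the log2 scale, although the ranges of the regions overlapped. Tdo2, tryptophan dioxygenase, was higher in hippocampus by a log2 fold change of only −0.36, with 5 of 6 mice in this direction, and was no DEG without mouse 7 (adjusted p = 0.0506) or mouse 8 (0.0566).

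For the CA fields, 13 of 14 genes were higher in hippocampus, 12 of them over 2-fold, with a median of −4.45. Summed levels were 147, 155 and 164 CPM in cerebellum and 1012, 1072 and 1100.4 CPM in hippocampus. Fibcd1 had 0.272 ± 0.101 CPM in cerebellum against 183 ± 28.8 CPM in hippocampus (−9.38 ± 0.089 SE). Rgs14, a regulator of G protein signalling that marks CA2, had 0.192 ± 0.126 CPM against 107 ± 12.3 CPM. Mpped1 and Cpne4, a copine, had 3.81 ± 0.634 against 278 ± 15.8 CPM and 1.15 ± 0.209 against 122 ± 12.8 CPM. Spink8, a protease inhibitor, had 0.03803 ± 0.0373 CPM against 16.4 ± 1.46 CPM. Cacng5, an AMPA receptor auxiliary subunit, was the exception, with 55.1 ± 6.797 CPM in cerebellum and 9.15 ± 2.02 CPM in hippocampus. Amigo2, an adhesion molecule of CA2 and CA3, was higher in hippocampus by a log2 fold change of −0.79, not shown to exceed 2-fold.

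The transcription factors that pattern the neural tube gave the largest list medians in both directions. Of 18 factors of the forebrain, 17 were tested, 16 were higher in hippocampus and all 16 over 2-fold. The median was −8.81, or −7.57 with the 2 genes that had no read in cerebellum set to their limit. Tbr1, a factor of glutamatergic forebrain neurons, had 0.639 ± 0.108 CPM in cerebellum and 49.7 ± 4.73 CPM in hippocampus, and Bcl11b, also known as CTIP2, had 0.757 ± 0.176 against 145 ± 16.2 CPM. Dlx6 and Dlx2, homeobox genes of forebrain GABAergic neurons, had 889 and 502 reads in hippocampus and 0 in cerebellum, so that they were at least 322-fold and at least 182-fold higher in hippocampus. Dlx5 had 744 reads against 1, a ratio of 809 (145 to 32007), and Emx1 1373 against 2, a ratio of 747 (206 to 6172). Neurod2 was not a DEG, with 96.2 ± 5.74 CPM in cerebellum and 112 ± 18.3 CPM in hippocampus (adjusted p = 0.0529), though it passed without mouse 15 (adjusted p = 0.00417) or mouse 7 (0.0338). Its relative Neurod6, by contrast, had 5.25 ± 1.21 CPM against 183 ± 17.4 CPM. Mef2c, an activity-dependent factor, was present in both regions (−1.49 ± 0.067 SE).

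Of 20 factors of the midbrain, hindbrain and cerebellar lineages, 14 had enough reads to be tested, and all 14 were over 2-fold higher in cerebellum (median 6.12). Summed levels of all 20 were 457, 475 and 482 CPM in cerebellum against 10.04, 11.4 and 15.9 CPM in hippocampus. En2, the engrailed factor of the midbrain-hindbrain boundary, had 98.5 ± 8.83 CPM against 0.533 ± 0.184 CPM, and its relative En1 1.29 ± 0.384 against 0.0154 ± 0.0278 CPM. Lhx1, a LIM factor of Purkinje cells, had 81.9 ± 8.19 CPM against 0.373 ± 0.102 CPM. Tfap2b, a factor of cerebellar GABAergic interneurons, had 76.02 ± 4.82 CPM against 0.252 ± 0.116 CPM, and Barhl2 21.9 ± 0.684 against 0.0497 ± 0.0369 CPM. Pax3 had 2296 reads in cerebellum and 2 in hippocampus, a ratio of 1055 (292 to 8720). Zic5 and Zic4 differed by less, 3.88 and 4.52 on the log2 scale. Gbx2, Lmx1b, Atoh1, Ptf1a, Hoxa5 and Hoxb5 had too few reads to be tested.

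The receptors for glutamate were exchanged subunit by subunit. Of 18 ionotropic subunits, 7 were higher in cerebellum (4 over 2-fold), 10 in hippocampus (6 over 2-fold) and 1 was not a DEG. The list median was −0.51, and among all genes tested 80.3% were DEGs and 24.5% over 2-fold apart. The clearest exchange was among NMDA receptor subunits. Grin2b, the subunit of slow juvenile and extrasynaptic receptors, had 27.2, 28.96 and 32.3 CPM in cerebellum and 700.0, 806 and 905 CPM in hippocampus, and Grin2a 105, 112 and 119.6 CPM against 392, 409 and 473 CPM. Grin2c, the subunit of mature granule cells, had 496, 525 and 604 CPM in cerebellum and 56.2, 65.3 and 68.05 CPM in hippocampus. No library crossed between the regions for any of the 3, and the log2 fold changes were −4.79 ± 0.059, −1.902 ± 0.041 and 3.08 ± 0.057 SE. The obligatory subunit Grin1 differed by only −0.33 ± 0.033. Per kb of exon, Grin2c was the highest Grin2 subunit in cerebellum at 106 CPM per kb (Grin2a 6.27, Grin2b 1.17), and Grin2b in hippocampus at 32.4 (Grin2a 23.5, Grin2c 12.6).

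AMPA receptor subunits also split. Gria4 had 683 ± 46.03 CPM in cerebellum and 82.3 ± 4.38 CPM in hippocampus (3.05 ± 0.041 SE), while Gria1 (−1.104 ± 0.036), Gria2 (−0.71 ± 0.037) and Gria3 (−0.697 ± 0.032) were higher in hippocampus. The kainate receptor subunits Grik4 (−2.06) and Grik5 (−1.71), which raise the affinity of the receptor, were over 2-fold higher in hippocampus, whereas Grik1 (0.87), Grik2 (0.65) and Grik3 (0.53), which form the channel, were higher in cerebellum. Grid1, a delta subunit, was higher in hippocampus (−1.58). Of 7 metabotropic receptors tested, 2 were higher in cerebellum and 4 in hippocampus. Grm4, a presynaptic receptor of parallel fibres, had 529, 559 and 639 CPM in cerebellum and 10.1, 12.2 and 15.4 CPM in hippocampus. Grm5, a postsynaptic receptor coupled to Gq, had 6.24, 7.44 and 8.71 CPM in cerebellum and 315, 335 and 361 CPM in hippocampus. The libraries of the regions were apart for both genes, with log2 fold changes of 5.47 ± 0.094 and −5.53 ± 0.069 SE. Per kb of exon, Grm4 exceeded Grm5 in cerebellum (94.9 against 0.714 CPM per kb), and Grm5 exceeded Grm4 in hippocampus (32.8 against 2.14).

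**Figure D3:**
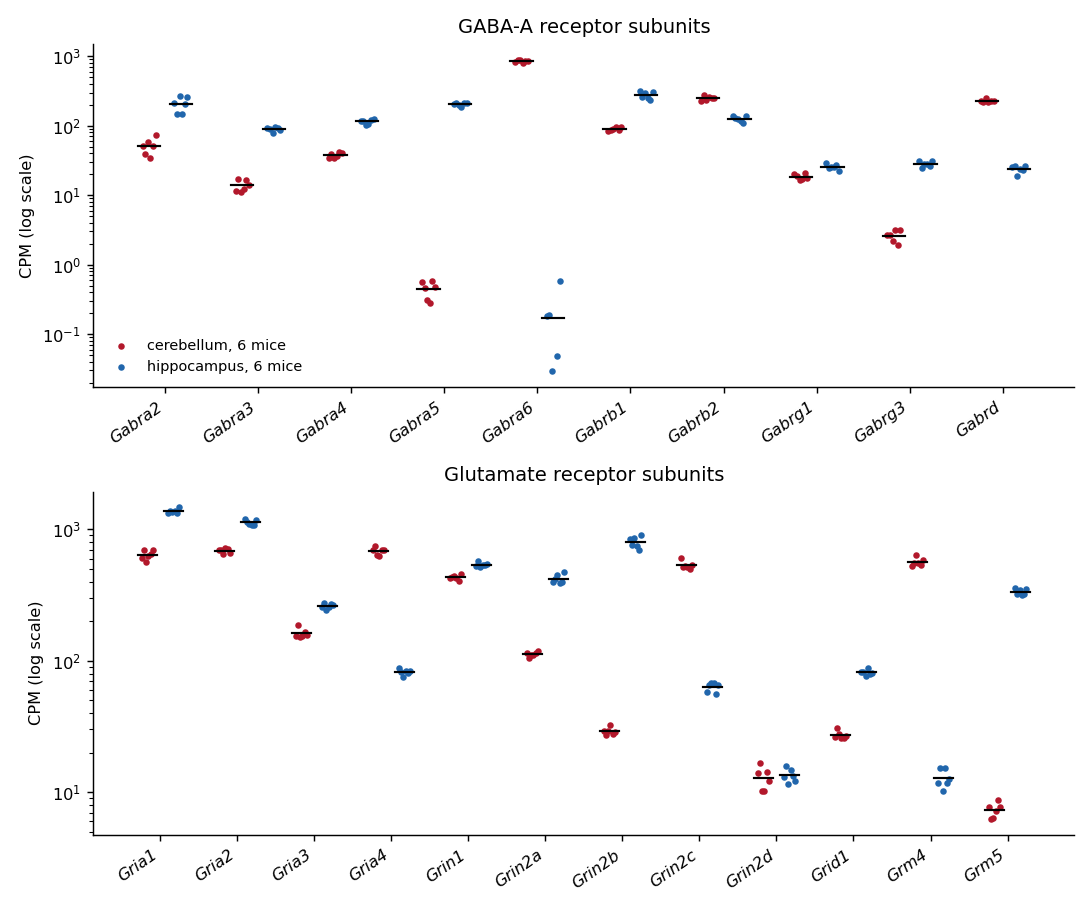
Level of 10 GABA-A receptor subunits (top) and 12 glutamate receptor genes (bottom) in every library, in CPM on a log scale, with a point per mouse, cerebellum red, hippocampus blue and a bar at the mean of 6 mice; hippocampus libraries with no Gabra6 read are not drawn. Gabra6 and Gabra5 lie at opposite ends in the regions, as do Grin2c and Grin2b.

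GABA-A receptor subunits were exchanged in the same manner. Of 18 GABA-A and glycine receptor genes tested out of 22, 6 were higher in cerebellum (4 over 2-fold), 11 in hippocampus (10 over 2-fold) and 1 was not a DEG, with a median of −1.46. Gabra5 had 0.279, 0.463 and 0.581 CPM in cerebellum and 187, 207 and 215 CPM in hippocampus, a log2 fold change of −8.86 ± 0.080 SE. Gabra6, given above, was its mirror image. Both subunits occur in receptors outside synapses, and Gabrd, the delta subunit that joins Gabra6 there, was higher in cerebellum with 229.7 ± 11.2 CPM against 23.9 ± 2.84 CPM. Gabra2 (−2.001), Gabra3 (−2.71) and Gabra4 (−1.61) were higher in hippocampus. Among beta subunits Gabrb2 was higher in cerebellum (0.97), and Gabrb1 (−1.62) in hippocampus. Gabrg3, a gamma subunit, had 2.603 ± 0.5004 CPM against 28.2 ± 2.31 CPM.

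Of 12 genes of transmitter identity and transport, 5 were higher in cerebellum (2 over 2-fold), 6 in hippocampus (5 over 2-fold) and 1 was not a DEG. Among all genes tested 80.3% were DEGs and 24.5% were over 2-fold apart. Slc17a7, the vesicular glutamate transporter VGLUT1, had 413 ± 18.9 CPM in cerebellum and 1272 ± 55.3 CPM in hippocampus, although granule cells and pyramidal cells both use it. Gad1, which makes GABA, was higher in cerebellum with 704 ± 25.4 CPM against 397 ± 26.8 CPM, while Gad2 was not a DEG with 175 ± 8.304 CPM against 168 ± 4.54 CPM (adjusted p = 0.107, or 0.0204 without mouse 15). Slc32a1, the vesicular transporter of GABA and glycine, had 101 ± 4.601 CPM against 48.8 ± 4.85 CPM. Slc6a9, the glial glycine transporter, was higher in cerebellum (1.38), and Slc6a11, the glial GABA transporter GAT3, in hippocampus (−2.17). Slc17a6, VGLUT2, was uneven in cerebellum at 0.524, 4.89 and 11.1 CPM against 9.596, 15.5 and 18.8 CPM in hippocampus, and the ranges overlapped.

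Neuropeptides and markers of forebrain interneurons were higher in hippocampus in 14 of 16 cases, 13 of them over 2-fold, with a median of −3.72. Sst, somatostatin, had 0.579 ± 0.208 CPM in cerebellum and 135 ± 22.5 CPM in hippocampus. Vip had 0.0421 ± 0.03801 CPM against 15.1 ± 1.25 CPM, Cck 13.6 ± 1.33 against 121 ± 11.3 CPM, and Pdyn, the dynorphin precursor of dentate granule cells, 0.121 ± 0.0894 against 16.2 ± 1.53 CPM. Npy differed less, at 6.74 ± 1.06 CPM against 26.9 ± 3.903 CPM. Bdnf, the neurotrophin, had 17.6 ± 3.404 CPM against 41.2 ± 3.44 CPM. The exceptions were Penk, the enkephalin precursor found in Golgi cells, with 70.8 ± 8.14 CPM in cerebellum and 22.1 ± 2.57 CPM in hippocampus, and Pvalb, the calcium buffer of Purkinje cells and of basket cells in both regions, with 361 ± 17.9 CPM and 20.8 ± 2.86 CPM.

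Calcium and calmodulin signalling was split between the regions by isoform. Of 21 genes, 15 were higher in hippocampus (7 over 2-fold) and 6 in cerebellum (5 over 2-fold), with a median of −0.78. Camk2a had 107, 110.4 and 117 CPM in cerebellum and 4298, 4668 and 4923 CPM in hippocampus, a log2 fold change of −5.38 ± 0.045 SE. Camk2b differed by −0.85 ± 0.037, Camk2g by −0.52 ± 0.034 and Camk2d in the other direction by 2.44 ± 0.092. Per kb of exon, Camk2b exceeded Camk2a in cerebellum (86.7 against 14.9 CPM per kb), while in hippocampus Camk2a exceeded Camk2b (619 against 156). Camk4, the nuclear kinase, was higher in cerebellum with 1122 ± 94.9 CPM against 154 ± 12.1 CPM. Its activating kinases were opposed, with Camkk2 at 1.38 and Camkk1 at −1.67. Nrgn, neurogranin, which holds calmodulin in dendritic spines, had 1.65 ± 0.499 CPM in cerebellum and 608 ± 32.2 CPM in hippocampus. Pcp4, another small calmodulin-binding protein, had 47.6 ± 4.25 CPM against 8.44 ± 1.09 CPM. Hpca, the calcium sensor hippocalcin, had 42.3 ± 5.28 CPM against 1049.8 ± 107 CPM. Among release channels Itpr3 (2.94) and Ryr1 (1.04) were higher in cerebellum, as Itpr1 was, and Itpr2 (−0.35), Ryr2 (−0.47) and Ryr3 (−2.55) in hippocampus.

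The 34 voltage-gated channel genes divided evenly, as all genes tested did (40.2% and 40.1%), with 16 higher in each region and 2 not DEGs, 8 over 2-fold in each direction and a median of −0.056. Kcnc1, a potassium channel of fast-spiking cells, was higher in cerebellum with 884 ± 39.8 against 209.9 ± 10.7 CPM. Kcnc2, of the same family, had 2.66 ± 1.07 CPM in cerebellum and 151 ± 4.03 CPM in hippocampus. Scn4b, the sodium channel subunit of resurgent current, had 88.3 ± 4.54 CPM against 18.7 ± 3.900 CPM. Its relative Scn3b had 2.65 ± 0.496 CPM against 353 ± 24.5 CPM, and Scn3a 3.101 ± 0.546 CPM against 73.5 ± 5.66 CPM. Cacna1a (1.55) and Cacna1g (1.801), the P-type and a T-type calcium channel, were higher in cerebellum, and Cacna1h, another T-type channel, in hippocampus with 2.74 ± 0.464 CPM against 194 ± 19.3 CPM. The M-current channels Kcnq3 (−2.74) and Kcnq5 (−5.77) were both higher in hippocampus.

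Gnb5 itself differed by under 2-fold, and its partners went both ways. Gnb5 (chr9:75306288-75345876 on GRCm38) had 133, 145 and 157 CPM in cerebellum and 96.98, 102 and 109 CPM in hippocampus, and every mouse had more in cerebellum (0.49 ± 0.034 SE). Of the 4 R7 proteins that Gnb5 binds, Rgs6 was higher in cerebellum (29.97 ± 1.31 against 15.3 ± 1.92 CPM), Rgs7 slightly higher in hippocampus (64.4 ± 4.41 against 73.4 ± 4.08 CPM, with overlapping ranges), Rgs9 higher in hippocampus (2.81 ± 0.812 against 11.9 ± 2.19 CPM) and Rgs11 likewise (3.897 ± 0.465 against 55.2 ± 3.68 CPM). Per kb of exon, Rgs11 at 13.1 CPM per kb was above Rgs7 at 12.2 in hippocampus, and in cerebellum Rgs7 at 10.7 was above Rgs6 at 2.99, Rgs11 at 0.926 and Rgs9 at 0.4401. The anchors Rgs7bp (0.25) and Gpr158 (0.82) were higher in cerebellum. Of the GIRK channels on which Gnb5 acts, Kcnj6 was higher in hippocampus (15.7 ± 2.59 against 41.95 ± 5.902 CPM), Kcnj9 in cerebellum (0.605), and Kcnj3 was not a DEG (165 ± 13.8 against 175 ± 8.55 CPM, adjusted p = 0.137, or 0.0216 without mouse 17). Over the list of 18, 8 were higher in cerebellum, 9 in hippocampus and 1 not a DEG, 4 were over 2-fold, all in hippocampus (Rgs11, Rgs9, Kcnj6 and the G protein gamma 2 gene Gng2), where 24.5% of all genes tested were over 2-fold apart, and the median was −0.14.

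Among glia, the microglial genes were the ones that all went the same way. All 10 microglial genes were over 2-fold higher in hippocampus, with a median of −1.76 and summed levels of 121, 129 and 133 CPM in cerebellum against 359, 396 and 407 CPM in hippocampus. Cx3cr1, the fractalkine receptor, had 12.8, 14.2 and 15.3 CPM in cerebellum and 52.3, 55.2 and 58.7 CPM in hippocampus, and P2ry12, the purinergic receptor of resting microglia, 6.69, 8.55 and 9.79 CPM against 32.1, 33.7 and 37.5 CPM. The groups were far apart and even within. Csf1r, the receptor on which microglia depend, differed by −1.66 ± 0.042 SE. The range over the list, from −2.12 to −1.25, was narrow beside that of the neuronal lists.

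Astrocyte genes went both ways, with 7 of 12 higher in cerebellum (4 over 2-fold), 4 in hippocampus (2 over 2-fold) and 1 not a DEG. Among all genes tested 80.3% were DEGs and 24.5% were over 2-fold apart. The pair of glial glutamate transporters was opposed, Slc1a3 at 1.12 ± 0.027 SE and Slc1a2 at −1.86 ± 0.037. Per kb of exon, Slc1a3 was above Slc1a2 in cerebellum (198 against 83.9 CPM per kb) and below it in hippocampus (91.1 against 304). S100b had 381 ± 20.3 CPM in cerebellum and 88.8 ± 4.05 CPM in hippocampus, and Aqp4, the water channel of astrocyte endfeet, 388 ± 37.4 against 165 ± 15.8 CPM. Gfap, the intermediate filament, went the other way with 102 ± 15.8 CPM against 314 ± 54.1 CPM, and Glul, glutamine synthetase, with 762 ± 81.8 against 1453 ± 108 CPM. Summed levels were 5738, 5869 and 6021 CPM in cerebellum and 7782, 7941 and 8433 CPM in hippocampus.

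The summed level of myelin genes did not separate the regions. Of 14 genes of myelin and oligodendrocytes, 6 were higher in hippocampus, 2 in cerebellum and 6 were not DEGs, and the summed levels overlapped, at 3048, 3596 and 4125 CPM in cerebellum and 3125, 3596 and 5135 CPM in hippocampus. The 2 genes over 2-fold higher in hippocampus were Olig1, a transcription factor of the lineage (27.7 ± 2.82 against 68.3 ± 6.07 CPM), and Opalin, a membrane protein of oligodendrocytes (5.63 ± 1.73 against 14.1 ± 2.02 CPM). Mag, a glycoprotein of the myelin sheath, was not a DEG (125 ± 14.5 against 119 ± 26.02 CPM, adjusted p = 0.458, or 0.0266 without mouse 17). Of 9 genes of vessels and blood, 3 were higher in cerebellum and 4 in hippocampus, none over 2-fold. This was near the share of DEGs among all genes tested, 80.3%. The summed levels of the 9 genes were 296, 301 and 306 CPM in cerebellum and 288, 302 and 372 CPM in hippocampus.

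**Figure D4:**
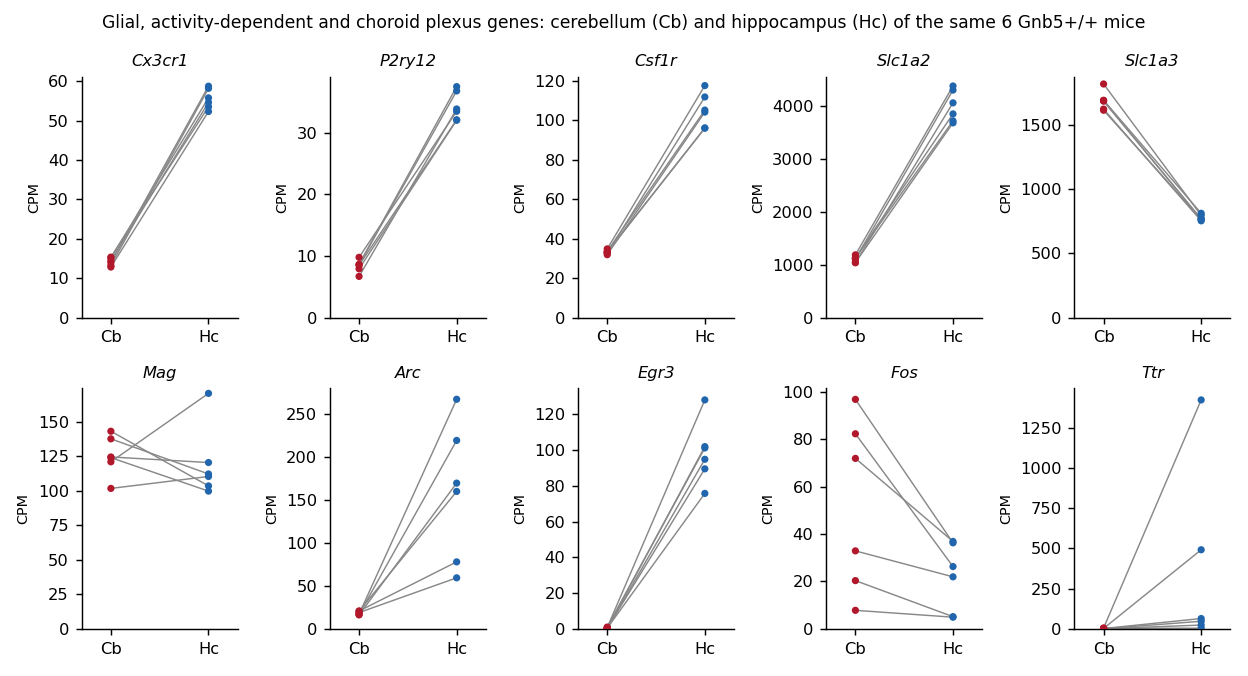
Level in CPM of 10 genes in cerebellum (Cb, red) and hippocampus (Hc, blue), with a line for each of the 6 Gnb5+/+ mice and vertical axes that start at 0. Microglial genes and Slc1a2 rise from cerebellum to hippocampus in every mouse, and Slc1a3 and Fos fall in every mouse. The lines of Mag cross, and Ttr is much higher in the hippocampus of 2 mice than in any other library.

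Genes of neighbouring tissue were examined as a measure of dissection. The 12 choroid plexus genes, 10 of them tested, summed to 28.04, 31.7 and 37.3 CPM in cerebellum and to 44.3, 100.5 and 1692 CPM in hippocampus. Ttr, transthyretin, had 1.301, 2.68 and 5.203 CPM in cerebellum and 4.303, 56.04 and 1422 CPM in hippocampus, the highest being mouse 7 and the next mouse 17 at 491 CPM. Without mouse 7 its log2 fold change was −4.78 in place of −5.805. The other genes followed it in part. Of the 10 genes tested, 6 were higher in hippocampus, 3 were not DEGs and Otx2 was higher in cerebellum (10.6, 12.1 and 13.2 CPM against 0.294, 0.644 and 8.29 CPM). The part of choroid plexus tissue in the differences of other genes was not tested. Kl, klotho, which choroid plexus shares with hippocampal neurons, had 1.89, 2.18 and 2.705 CPM against 27.2, 29.2 and 107 CPM, with the highest value in the same mouse 7.

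Of 12 genes of striatum and thalamus, 11 were tested, with 2 higher in cerebellum and 7 in hippocampus. The summed levels of all 12 were 196, 201 and 217 CPM in cerebellum and 109, 118 and 127 CPM in hippocampus. Most of that sum in cerebellum came from Ppp1r1b, the phosphatase regulator DARPP-32 (97.8 ± 4.57 against 29.7 ± 4.55 CPM), and Prkcd, protein kinase C delta (89.6 ± 11.4 against 21.9 ± 4.77 CPM). The dopamine receptors were low in both, with Drd1 at 0.261 ± 0.0849 and 4.47 ± 0.886 CPM and Drd2 at 0.327 ± 0.0427 and 2.97 ± 0.308 CPM. Of 10 genes of brainstem and monoamine neurons, 3 passed the filter, 1 higher in cerebellum (over 2-fold) and 2 higher in hippocampus (1 over 2-fold). Th, tyrosine hydroxylase, which some Purkinje cells also transcribe, had 5.97 ± 1.03 CPM in cerebellum and 0.597 ± 0.264 CPM in hippocampus, while Dbh, Slc6a2, Slc6a3, Slc6a4, Chat and Slc18a3 had too few reads to be tested.

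Immediate early genes, which neuronal activity induces within minutes, were higher in hippocampus in 12 of 15 cases, 10 of them over 2-fold, with a median of −1.97. Arc, which controls AMPA receptor traffic, had 16.3, 18.1 and 20.9 CPM in cerebellum and 59.5, 165 and 268 CPM in hippocampus. Egr3, a zinc finger factor, had 0.248, 0.442 and 1.03 CPM against 75.7, 97.95 and 128 CPM, a log2 fold change of −7.54 ± 0.15 SE. Hippocampus libraries were all above the cerebellum libraries for both genes, with a wide spread for Arc in hippocampus and for Egr3 in cerebellum. Egr1 (−1.596 ± 0.16) and Junb (−2.93 ± 0.18) followed the same direction. Fos went the other way, with 7.83, 52.4 and 96.7 CPM in cerebellum and 4.94, 24.1 and 36.9 CPM in hippocampus. Its ranges overlapped, but within each of the 6 mice cerebellum was the higher (1.21 ± 0.15 SE, adjusted p = 1.86e-05 in edgeR, or 0.0636 without the mouse as a block). A two-sided exact permutation test over the 6 pairs gave p = 0.03125 for Fos, the smallest possible. Dusp1, a phosphatase of MAP kinases, and Ier2 were also higher in cerebellum, by 1.27 ± 0.097 and 1.25 ± 0.12.

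Genes of adult neurogenesis and cell division were low and mostly higher in hippocampus, 9 of the 10 tested and 6 of them over 2-fold. Dcx, doublecortin of newborn neurons, had 5.696, 7.04 and 7.77 CPM in cerebellum and 24.8, 25.9 and 40.3 CPM in hippocampus, and Sox11 2.87, 3.24 and 3.86 CPM against 18.5, 19.4 and 22.7 CPM. All hippocampus libraries lay above the cerebellum libraries for both. The proliferation gene Mki67 had 0.4204 ± 0.181 CPM against 1.21 ± 0.258 CPM and Top2a 0.347 ± 0.197 against 1.31 ± 0.264 CPM. Mcm2, a replication licensing factor, was the exception, higher in cerebellum with 11.3 ± 1.78 against 4.81 ± 0.804 CPM.

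The cerebral cortex of the same 6 mice served to place the regional differences. On the scale of log2 CPM plus 1, cortex was nearer to hippocampus than to cerebellum at 75.5% of all genes tested. The share was 91.2% (1568 of 1719) of the genes over 2-fold higher in cerebellum and 85.6% (2252 of 2632) of those over 2-fold higher in hippocampus. Camk2a had 3988 CPM in cortex and Gabra6 0.153 CPM, near their hippocampal levels. Fibcd1 (15.2 CPM in cortex), Gabra5 (48.6), Crym (60.9) and Cpne7 (102) lay between the regions. These values were normalised over the 18 libraries of the 3 regions and are given as a description.

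The regional comparison was repeated in other animals, 6 Gnb5-/- mice, none of whose libraries entered the comparison above. Gnb5 was at 18.6 to 21.9 CPM in their cerebellum and 11.9 to 14.2 CPM in their hippocampus, below every Gnb5+/+ library. Of 17726 genes tested, 10271 were DEGs (57.9%), 4951 higher in cerebellum (27.9%) and 5320 in hippocampus (30.0%). Over 2-fold were 3692 (20.8%), with 1359 in cerebellum (7.67%) and 2333 in hippocampus (13.2%). The cerebellum library of mouse 12 stood apart, with 8.02% of reads matched to no gene feature where the other 5 had 14.02% to 16.6%. Without that mouse 13766 genes were DEGs, and 1621 and 2583 were over 2-fold. All 4199 genes over 2-fold apart in Gnb5+/+ mice that could be tested in Gnb5-/- mice had the same sign there, and 3431 were again over 2-fold. Of the 14052 DEGs, 13371 had the same sign, 9853 were DEGs with the same sign and 1 was a DEG with the opposite sign. Across the 17443 genes tested in both, which are not independent replicates, Pearson's r of the log2 fold changes was 0.9804.

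In Gnb5-/- mice the log2 fold change was 12.66 ± 0.31 SE for Gabra6, 10.97 ± 0.41 for Pcp2, −5.25 ± 0.37 for Grin2b, −5.73 ± 0.31 for Camk2a and −8.71 ± 0.29 for Gabra5. The granule cell list had a median of 4.401 with 14 of 14 higher in cerebellum, and the microglia list −1.65 with 10 of 10 higher in hippocampus. Prox1 was at −1.41 ± 0.22 and Wfs1 at −2.04 ± 0.14. Ttr was at −3.09 ± 1.7.

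**Figure D5:**
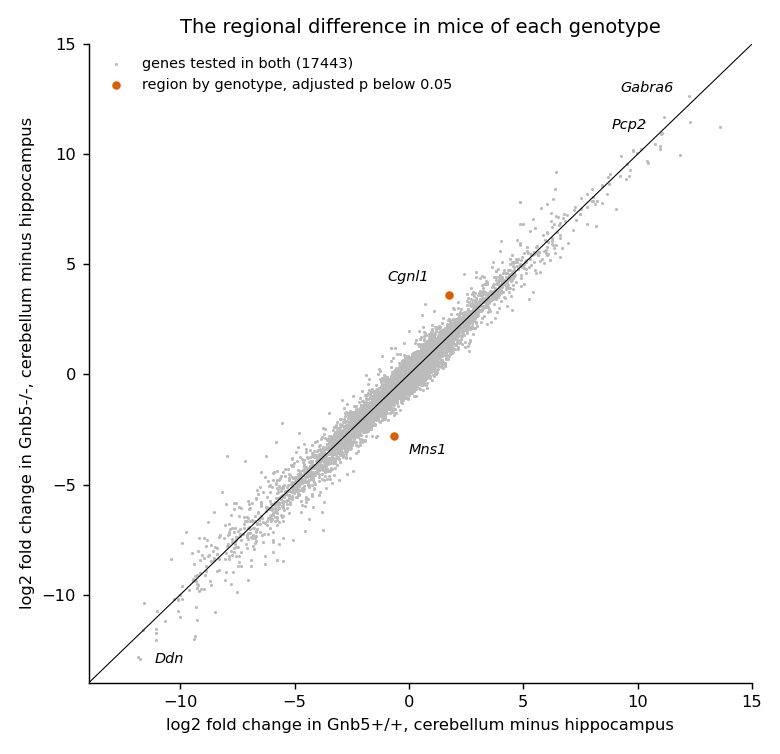
Log2 fold change of cerebellum minus hippocampus in Gnb5+/+ mice (horizontal axis) and in Gnb5-/- mice (vertical axis) for the 17443 genes tested in both, 6 mice per genotype, with the line of equal values. The points follow the line, and Cgnl1 and Mns1 (orange) are the genes with an adjusted p below 0.05 for region by genotype.

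The difference of the 2 regional contrasts was tested itself, over 24 libraries. Of 18709 genes, 2 (0.0107%) had an adjusted p below 0.05 in edgeR's test of region by genotype. DESeq2 gave 9 genes, and edgeR without mouse 12 gave 6. In the same edgeR test 872 of the 18709 genes had an unadjusted p below 0.05. Where no gene differed, a share of about 0.05 of the genes would fall below that level. Cgnl1, a junction protein related to cingulin (chr9:71626509-71771602), had 63.6, 71.2 and 80.2 CPM in Gnb5+/+ cerebellum and 17.4, 20.3 and 30.4 CPM in Gnb5+/+ hippocampus, and 165 ± 34.7 CPM and 13.4 ± 1.63 CPM in the Gnb5-/- mice. Its regional difference was larger by 1.85 ± 0.16 SE in Gnb5-/- mice (adjusted p = 0.000577). Mns1, a protein of meiosis and of cilia (chr9:72438011-72462025), had 1.55, 1.64 and 2.38 CPM and 2.05, 2.49 and 3.97 CPM in Gnb5+/+ mice and 0.888 ± 0.3604 and 6.005 ± 0.833 CPM in Gnb5-/- mice, a difference of −2.15 ± 0.21 SE (adjusted p = 0.00118). Mrap2 (adjusted p = 0.0591), Slc17a5 (0.0591) and Gm36948 (0.171) came next and did not pass. These 5 genes lie on chromosome 9, as does Gnb5, so that the deleted allele and the DNA around it that the Gnb5-/- mice carry cannot be told apart for them. The regional difference of Gnb5 was not shown to differ between genotypes (0.12 ± 0.072 SE, adjusted p = 0.697).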

How the data were processed

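The deposited files hold raw read counts per gene, 1 column per library. Per the labels and the methods of the authors, stranded total RNA libraries were read single-end, adapters were removed with Cutadapt 1.8, ribosomal and low-complexity reads were discarded, STAR 2.5.3a aligned the rest to GRCm38, and htseq-count 0.9.1 assigned reads to Ensembl genes. The 5 summary lines of each file were dropped. Of 53715 gene identifiers, 53620 matched GENCODE M21 (GRCm38), which gave symbols and coordinates, and 95 did not.

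Counts were TMM-normalised, filtered with filterByExpr (count minimum 10) and tested with edgeR 4.0.16 in R 4.3.3 (glmQLFit and glmQLFTest, and glmTreat for a 2-fold difference), with the mouse as a block and Benjamini-Hochberg adjustment over all genes tested. The labels give the same mouse number to both regions. Deviations of a mouse's libraries from the region means correlated at 0.436 to 0.656 with its own number, and at 0.109 or less with others (9365 genes). No pair of libraries in a region agreed within sampling noise (chi-square per gene 8.68 to 22.3). Single values were tested by exact permutation over the 6 mice (smallest p 0.03125). Intervals of read ratios are exact at 95% and cover counting error only.

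The 24 gene lists, the alternatives and the rule for named genes were chosen with earlier results of these data known. The rule took the 4 markers, the 10 protein-coding and 3 non-coding genes of largest fold in each direction (over 2-fold, at least 10 CPM in the higher region, no overlap), the 5 most abundant in each direction, list members, and the 5 genes of smallest p for region by genotype. Some genes that the rule or the lists hold are counted but not reported here singly. Cortex was used for placement only, with 1 CPM added before logs. Alternatives were other normalisations, filters and tests (DESeq2 1.42.0), no block, each mouse left out, and, added after the data were seen, leaving out mouse 12.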

Additional observations from a re-analysis of the deposited data

Results flagged for a closer look

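A library far from the other 5 of its group was found for 24 of the 284 groups of 6 values that were examined by Dixon's criterion, which chance passes in about 1 of 20 groups. Most of these are small, and none changes the direction of a difference between the regions.

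The hippocampus library of mouse 7 held the most choroid plexus RNA, with 1422 CPM of Ttr against 4.30 to 491 in the other mice, and a summed choroid plexus level of 1692 CPM. The same library had 30.4 CPM of Cgnl1 against 17.4 to 22.02 in the others. Mouse 8 stood apart in genes of the dentate gyrus. In its hippocampus the dentate list summed to 894 CPM and Prox1 was at 176 CPM against 119 to 139, and in its cerebellum Dsp was at 4.26 CPM against 0.0828 to 0.466. Its hippocampus also had the most of 2 cerebellar genes, 0.588 CPM of Gabra6 against 0 to 0.190 and 0.347 CPM of Cnpy1 against 0.0238 to 0.114.

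In hippocampus, mouse 15 was high in Dcx (40.3 CPM against 24.8 to 28.8), Gm2824 (16.8 against 13.9 to 14.7) and En1 (0.0686 against 0 to 0.0238). Mouse 18 was high in Pvalb (26.3 CPM against 18.6 to 20.97). Mouse 17 was high in Mag (170.5 CPM against 99.7 to 120.4).

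In cerebellum, mouse 15 was high in Ddn (2.55 CPM against 0.149 to 0.944) and in the Dlx6os1 transcript (0.0736 against 0 to 0.0248), both genes of the forebrain, and low in Npy (4.69 against 6.71 to 7.66). Mouse 16 was high in Wfs1 (51.7 CPM against 44.9 to 47.0), Prkcd (112 against 81.5 to 91.2) and the summed striatum and thalamus genes (217 CPM). Mouse 17 was high in Gabrd (251 CPM against 220.3 to 230.3) and Mns1 (2.38 against 1.55 to 1.69). Mouse 7 was low in Camk4 (946 CPM against 1115 to 1205) and high in Drd2 (0.411 against 0.296 to 0.322).

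Among the Gnb5-/- libraries, the cerebellum of mouse 12 had 8.02% of reads matched to no gene feature, the lowest of its group. The regional difference itself differed between genotypes, in edgeR's test of region by genotype, for Cgnl1 by 1.85 and for Mns1 by −2.15 on the log2 scale.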

How the results depend on the processing

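Requiring at least 10 counts in every library, which removes genes silent in a region, lowered the genes over 2-fold apart in Gnb5+/+ mice from 4351 to 2888 (1707 higher in hippocampus), and in Gnb5-/- mice from 3692 to 2313 (1401). Under the other alternatives these counts, and those of DEGs, stayed within 1.5 times. The count for region by genotype was 4 without the mouse as a block, 4 with at least 10 counts in every library, 9 in DESeq2, 6 without mouse 12 and 2 to 5 with a mouse of each genotype left out. Cgnl1 and Mns1 passed in each of these. Without the replicate block, 13774 genes were DEGs in Gnb5+/+ mice and 1656 and 2559 were over 2-fold higher in cerebellum and hippocampus, and of the called genes compared Fos and Mrap2 no longer passed.

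Of 2701 alternative values for the named genes, 2685 kept direction and call, 5 no longer passed, 11 newly passed (Neurod2 under 7 alternatives, DESeq2 among them) and 0 changed sign. Scaling by library size alone moved the median log2 fold change of all genes from 0.0028 to 0.077 in Gnb5+/+ mice and from 0.012 to 0.12 in Gnb5-/- mice, and under it Rgs7 no longer passed and Gad2 did. Levels under about 0.1 CPM rest on a few reads, so that folds against them are imprecise. Bulk libraries do not resolve cell types, and 6 mice of 1 sex and age were measured.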

Other observations

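Classes of genes other than protein-coding also divided between the regions. Of 677 lincRNA genes tested, 112 were over 2-fold higher in cerebellum and 185 in hippocampus, and of 575 antisense genes 97 and 118, with the limit that whether reads were counted by strand is not given in the sources used here. Of 14850 protein-coding genes, 1268 and 2141 were over 2-fold higher. Genes of the annotation class TEC, which await experimental proof, went the other way, with 111 and 64 of 563 and a median log2 fold change of 0.41, as did sense intronic genes (19 and 4 of 75, median 0.78). The median was 0.40 for 51 snoRNA genes and 0.49 for 50 miRNA genes, against −0.014 for 14850 protein-coding genes. The share of reads matched to no gene feature was also higher in cerebellum, and its part in these medians was not tested.

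Haemoglobin transcripts, a measure of blood left in the tissue, were higher in cerebellum in each of the 6 mice, though not shown to exceed 2-fold. Hba-a1 had 25.2 CPM in cerebellum and 18.9 CPM in hippocampus and Hbb-bs 12.7 and 8.87 CPM.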
